A study of Mus musculus with 6 samples.

Results

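Kinesins are motor proteins that walk along microtubules. The set examined here holds the 47 rows, of 55549 in each deposited gene table, whose symbol begins with Kif or Kifc followed by a digit, or is Cenpe, Klc1 or Klc2. Another 3 matching rows, Kif22-ps, Kif4-ps and Kifc5c-ps, are pseudogenes and were left out. By known role, 16 members were classed as mitotic, 17 as transport and 13 as other, the last being mainly kinesins of cilia or of microtubule growth. The remaining row, Kif16bos, is an antisense RNA beside Kif16b. Within the other class, Kif1bp is a protein that binds kinesins and is not itself a motor.

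The libraries hold polyadenylated RNA of mouse embryos at the early 2-cell stage, amplified by Smart-seq2, a full-length cDNA method primed on the poly(A) tail. There were 3 control libraries and 3 libraries of embryos cultured from 4 h after fertilization in medium with 40 uM ethylparaben (EtP), a preservative ester. By the series' account development mostly halts there under EtP, and the question is what sets the RNA of such embryos apart. The labels name no strain, embryo number per library, hour of collection or control medium. They also do not tell whether replicates are independent cultures, so every p-value reflects spread among 6 libraries that may be technical, and a difference in age between the groups cannot be told apart from a difference in treatment. In such bulk samples, fewer cells and less RNA per cell cannot be told apart either.

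Cell division needs a distinct subset of the family. Kinesins of the spindle push its poles apart, move or hold chromosomes, take microtubules apart at their ends, and build the central spindle on which the cleavage furrow depends. Transport kinesins carry vesicles, mitochondria and other cargo toward the cell cortex, and in kinesin-1 a heavy chain dimer is joined by light chains. An egg carries stored transcripts for the first divisions, so a level at this stage can be stored RNA, new RNA or both.

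Library totals were 11173295 to 14737152 estimated counts. EtP libraries held fewer detected genes, 19321 to 19713 against 25971 to 26103 in control, and 39 to 42 of the 47 kinesins against 44 to 45. TMM factors, which correct library size for RNA composition, spanned 1.198 to 1.385 for control libraries and 0.738 to 0.833 for EtP libraries. The 16 egg and embryo markers, none at 0, summed to 17330 to 20810 TPM in control and 27780 to 29280 in EtP, where TPM is the authors' level per transcript length. Of these 16, 10 were called higher and 3 lower in EtP (edgeR adjusted p below 0.05), against 12.5% and 18.1% of all tested genes. Among the higher ones, Padi6 and Bmp15 had the smallest p, with log2 fold changes of 2.52 and 1.79. The lower ones were Zfp352, Zscan4c and Zscan4d, at -8.50, -3.75 and -3.33. Zfp352 was at 0.193, 0.221 and 0.248 CPM in EtP replicates 1, 2 and 3. It passed the filter on low counts through the control libraries alone, so a fall is the only call open to it. Zscan4c and Zscan4d are known as genes switched on in 2-cell embryos. The 15 cumulus cell markers summed to 22.0 to 30.1 TPM in control and 8.02 to 10.03 in EtP, with Amh and Ptx3 at 0 in every library. Cyp19a1 held most of this sum, at means of 15.3 and 7.97 TPM, and was not called (edgeR adjusted p = 0.436). Of 8 cumulus markers tested, 0 were called higher and 5 lower, against 12.5% and 18.1% of all genes, with a median log2 fold change of -3.14. The lower ones were Vim, Tnfaip6, Krt18, Ptgs2 and Fshr, all under 1 CPM in every EtP library. All 5 passed the filter on low counts through the control libraries alone, so a fall is the only call open to them. The 15 sperm markers summed to 76.9 to 120.0 and 48.2 to 66.0 TPM, with Smcp and Tnp1 at 0 in every library. Most of this sum was Odf2, at means of 66.6 and 49.5 TPM, and 11 of the 15 were under 1 TPM in all libraries. Of 3 sperm markers tested in counts, 0 were called higher and 1 lower, against 12.5% and 18.1% of all genes. Odf2 had a log2 fold change of 0.42 (edgeR adjusted p = 0.363) and Ldhc of -0.60 (adjusted p = 0.26). The lower one was Prm2, at -1.45 (adjusted p = 0.0111). Whether the lower sum measures less sperm RNA was not tested. Detected genes, TMM factors and the marker sums separated the groups, while library totals overlapped. The part of these measures in the results below was not tested.

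Windows around annotated gene starts are shown for 3 of the 4 called mitotic motors, Kif23, Kif22 and Kif4, and for Kif3a, the transport motor that rose, because promoter letters differed between the classes. The fourth, Kif2c, is not shown because its listed window lies inside the gene and the last 25 bases match no annotated transcript. That window holds TTTGAA 103 bases before the listed start and no CCAAT. The Kif4 window also lies inside the GENCODE span of its gene, which starts at 100625737, but its end matches a transcript. It is therefore not upstream of every annotated start of Kif4. Each window runs 5′ to 3′ along the gene's strand, from 250 bases before an annotated start to 50 after it (RefSeq, GRCm38.p6). Capitals mark TTTGAA, the core of the CHR element found near the start of many cell-cycle genes, and CCAAT, the box bound by NF-Y, or their reverse complements TTCAAA and ATTGG.
Kif23, chr9:61946750-61947049, minus strand: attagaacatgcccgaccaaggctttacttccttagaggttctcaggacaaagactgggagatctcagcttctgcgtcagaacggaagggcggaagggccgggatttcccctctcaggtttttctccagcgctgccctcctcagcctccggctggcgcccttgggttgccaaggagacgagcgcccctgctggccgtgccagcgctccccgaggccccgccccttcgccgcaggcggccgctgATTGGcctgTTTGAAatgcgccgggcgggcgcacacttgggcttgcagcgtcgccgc
Kif22, chr7:127042371-127042670, minus strand: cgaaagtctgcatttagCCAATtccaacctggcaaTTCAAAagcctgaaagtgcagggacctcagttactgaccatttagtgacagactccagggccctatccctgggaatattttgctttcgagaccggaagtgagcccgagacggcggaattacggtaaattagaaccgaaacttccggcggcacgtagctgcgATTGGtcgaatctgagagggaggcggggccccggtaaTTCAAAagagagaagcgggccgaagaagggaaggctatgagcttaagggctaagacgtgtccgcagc
Kif4, chrX:100625815-100626114, plus strand: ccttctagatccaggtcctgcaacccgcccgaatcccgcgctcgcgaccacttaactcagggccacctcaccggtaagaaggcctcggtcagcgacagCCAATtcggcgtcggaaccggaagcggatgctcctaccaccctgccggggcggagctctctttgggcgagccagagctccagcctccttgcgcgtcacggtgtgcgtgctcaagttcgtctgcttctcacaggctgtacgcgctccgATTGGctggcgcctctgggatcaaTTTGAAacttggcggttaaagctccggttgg
Kif3a, chr11:53567119-53567418, plus strand: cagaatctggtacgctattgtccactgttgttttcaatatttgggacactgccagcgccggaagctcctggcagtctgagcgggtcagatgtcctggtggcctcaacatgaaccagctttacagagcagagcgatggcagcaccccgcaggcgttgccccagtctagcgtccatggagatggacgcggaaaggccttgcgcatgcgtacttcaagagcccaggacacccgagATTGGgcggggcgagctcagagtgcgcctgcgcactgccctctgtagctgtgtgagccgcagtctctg

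Kif23, Kif22 and Kif4 each hold both motifs, and Kif3a holds CCAAT alone. Both strands were searched in all windows of this length that the table holds. The CHR core lay in 11 of 16 windows of mitotic kinesins (15 genes), 1 of 13 of transport kinesins (11 genes) and 2 of 10 of other kinesins (9 genes), against 17.9% of all 32851 windows. CCAAT lay in 10, 4 and 4 of these windows, against 37.4% of all. Besides Kif2c and Kif4, windows of Kif14, Kif17, Kif27 and Kif1a lie inside the GENCODE spans of their genes. Those of Kif14, Kif27 and Kif1a hold TTTGAA, none of them within 30 bases of the listed start. The counts thus include windows that are not upstream of every annotated start. Within 30 bases of the annotated start, a span chosen after the matches were seen, TTTGAA lay in 9 windows of mitotic, 0 of transport and 1 of other kinesins, against 3.19% of all windows. Kifc1 and Kifc5b are both among the 9, and their windows share a stretch around the match, so they are not independent. Kif11, Kif15 and Kif20b are among those 9, and their transcripts did not pass the test between groups, so called and uncalled members share the motif. Missing the threshold does not show that a level was unchanged. These are matches of letters, not measured binding sites.

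In all, 37 of the 47 kinesins passed the filter on low counts, and 8 of these differed between the groups, 5 higher and 3 lower in EtP, when 30.6% of all tested genes differed. Mitotic kinesins made up 4 of the 5 that rose. Of 15 tested mitotic members, 4 were higher and 0 lower (edgeR's quasi-likelihood test across all genes, adjusted p below 0.05), where 12.5% of all 14373 tested genes were higher and 18.1% lower. At an unadjusted p below 0.05 there were 6 higher and 0 lower, against 17% and 25.3% of all genes, and DESeq2 gave 6 and 0, against 16% and 16.4%. The median log2 fold change of the 15 was 0.51, against -0.19 over all tested genes. The direction of this median depends on scaling: with library size alone it was -0.22, when that of all genes was -0.92, so that it lay 0.69 above all genes with TMM and 0.70 above with library size alone. This offset was 0.41 on log2(TPM + 1) and 1.34 without a filter on low counts, which lets in many rare genes. With library size alone 3 members were still higher, where 3.79% of all genes were, and 2, Kif2a and Kif18b, were lower, where 53.0% of all genes were.

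**Figure D1:**
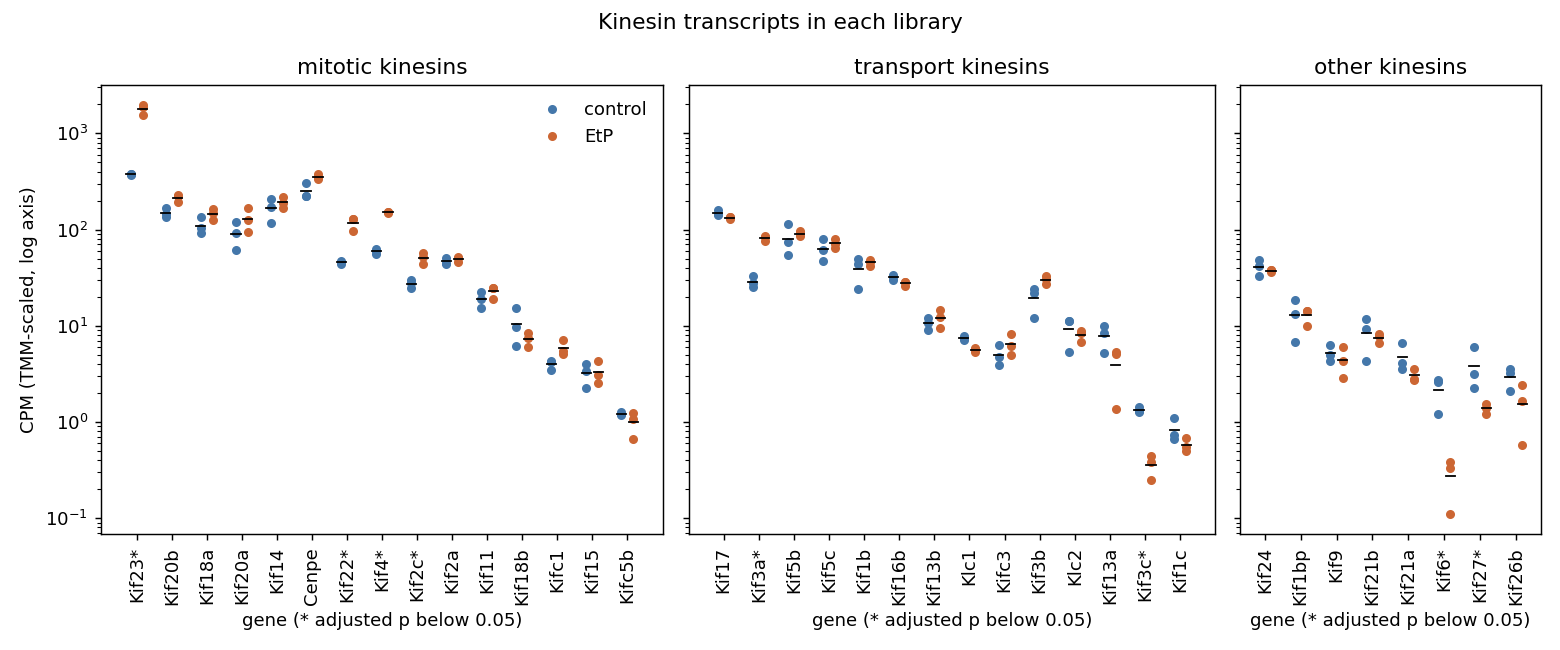
Counts scaled to TMM-corrected library size (CPM, log axis) of the 37 tested kinesins in each library, grouped by class and ordered by mean TPM; points are libraries (3 control, 3 EtP), black bars are means and asterisks mark an adjusted p below 0.05. Kif23 stands far above the rest in EtP, at 1567 to 1955 CPM.

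Kif23, the motor of centralspindlin that bundles the central spindle before cleavage, was the most abundant kinesin per length in every library and rose most. The gene lies on chromosome 9 from 61915905 to 61946774 of mm10. Its levels were 370.5, 381.5 and 379.9 CPM in control replicates 1, 2 and 3, and 1867, 1567 and 1955 CPM in EtP replicates 1, 2 and 3. The groups were far apart and the controls nearly equal. The fold change was 4.76, or 2.25 ± 0.20 on the log2 scale (SE; edgeR adjusted p = 3.23e-05). Its value stayed between 1.52 and 2.38 in every alternative run, and it was called in each. Racgap1, which forms centralspindlin with Kif23 and is named for that reason, was at 155 ± 23.8 CPM in control and 125 ± 23.5 in EtP (SD, n = 3; edgeR adjusted p = 0.324).

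The chromokinesins, which ride on chromosome arms, rose as well. Kif22 (chromosome 7, 127027729 to 127042471) was at 44.2, 47.3 and 46.5 CPM in control and 128, 96.6 and 130 CPM in EtP, and no EtP library reached down to the controls. Its log2 fold change was 1.36 ± 0.21 (SE; edgeR adjusted p = 0.00105), and its call was lost only in the fit to log2(TPM + 1), where adjusted p was 0.0571. Kif4 (chromosome X, 100625737 to 100727214), which also binds the midzone bundler Prc1, was at 60.1, 56.2 and 62.4 CPM in control and 153, 151 and 149 CPM in EtP. Its replicates were tightly grouped, and the log2 fold change was 1.34 ± 0.19 (SE; edgeR adjusted p = 0.000654). Kif4 and its pseudogene can share reads, but Kif4-ps held 18 to 30 counts in control and 2 to 10 in EtP, against 962 to 1804 for Kif4. It also shares 832 exonic bases with Pdzd11 on the opposite strand, which this unstranded protocol cannot separate.

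Of the kinesin-13 family, known for taking microtubules apart, Kif2c was called, while Kif2a and the centriolar Kif24, described with the other class, were not. Kif2c, which removes tubulin at kinetochores, was at 24.7, 29.7 and 27.5 CPM in control and 56.8, 43.5 and 51.8 CPM in EtP. The groups did not overlap, the log2 fold change was 0.89 ± 0.22 (SE; edgeR adjusted p = 0.0109), and the call was lost when EtP replicate 1 was left out (adjusted p = 0.0609), with library size alone (adjusted p = 0.582) and on log2(TPM + 1) (adjusted p = 0.176). Kif2a, which works at spindle poles and in neurons, was at 50.8, 44.0 and 45.2 CPM in control and 46.0, 51.5 and 50.8 in EtP, with overlapping groups and a log2 fold change of 0.08 ± 0.20 (SE; adjusted p = 0.784). Kif2a shares 1229 exonic bases with Dimt1 on the opposite strand. The ratio of Kif2c to Kif2a CPM within a library, which no scaling between libraries can move, was 0.486 to 0.676 in control and 0.845 to 1.24 in EtP. Kif2b held 4, 4 and 0 counts in control and none in EtP, too few to test.

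Other kinesin-6 motors did not pass the test. Kif20b, a motor of late cytokinesis, was at 166, 146 and 134 CPM in control and 223, 192 and 227 in EtP. All EtP libraries were above all controls, as for 19.0% of tested genes, but the log2 fold change of 0.53 ± 0.20 missed the threshold (SE; edgeR adjusted p = 0.0671), and passed with DESeq2 (adjusted p = 0.0259) and with RLE scaling (adjusted p = 0.0453). Kif20a, which brings the chromosomal passenger complex to the midzone, was at 61.0, 91.4 and 120 CPM in control and 127, 94.3 and 170 in EtP, with overlapping groups (log2 fold change 0.52 ± 0.30, SE; adjusted p = 0.206), and passed when control replicate 3 was left out (0.82, adjusted p = 0.0475). Kif20a shares 1271 exonic bases with Cdc23 on the opposite strand, so its count may include reads of that gene. The ratio of Kif23 to Kif20b CPM was 2.23 to 2.84 in control and 8.14 to 8.63 in EtP libraries. These ratios did not overlap.

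Cenpe, Kif18a and the motors that shape the poles did not pass the test. Kif18a, which damps chromosome movement at the plate, was at 134, 104 and 92.9 CPM in control and 164, 126 and 149 in EtP, with overlap (log2 fold change 0.41 ± 0.22, SE; edgeR adjusted p = 0.187). Cenpe, which carries chromosomes to the plate, was at 303, 225 and 222 CPM in control and 352, 334 and 377 in EtP, all above the controls, with a log2 fold change of 0.51 ± 0.21 (SE; adjusted p = 0.0907). Cenpe passed with DESeq2 (adjusted p = 0.0481). Kif20b, Kif18a and Cenpe were called when control replicate 1 was left out, which made 7 mitotic kinesins higher, when 17.6% of all genes were. Kif14, a cytokinesis motor, Kif11, which drives the poles apart, and Kifc1, a minus-end motor that focuses them, had log2 fold changes of 0.21, 0.27 and 0.58 with adjusted p of 0.559, 0.425 and 0.147. Kif15, Kifc5b and Kif18b had values of 0.03, -0.28 and -0.51 with adjusted p of 0.957, 0.642 and 0.285. Kifc1 and Kifc5b are close copies, so their split of reads is uncertain.

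**Figure D2:**
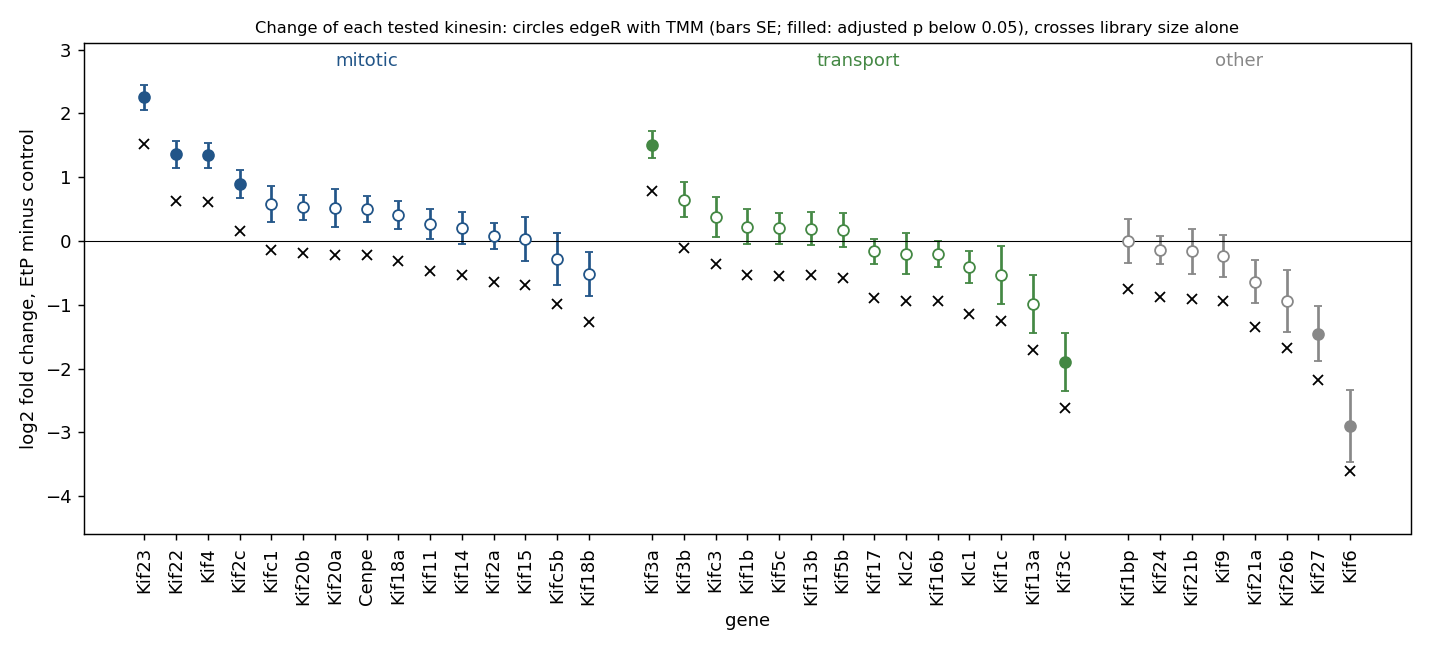
Log2 fold change of EtP against control for each tested kinesin, by class; circles are the edgeR fit with TMM, bars are SE, filled circles have an adjusted p below 0.05, and crosses are the fit with library size alone. Kif23 at 2.25 is the highest value and Kif6 at -2.89 the lowest, and library size alone sets every gene lower by a similar amount.

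Transport kinesins did not move together. Of 14 that passed the filter, 1 was higher, 1 lower and 12 did not pass, against 12.5% and 18.1% of all genes, and the median log2 fold change was 0.01. The median of this class also depends on scaling, and was -0.74 with library size alone, when 7 members were lower and 1 higher, against 53.0% and 3.79% of all genes. Both called members, Kif3a and Kif3c, belong to kinesin-2. Of all 37 tested kinesins, 3 (Kif1c, Kif3c and Kif6) passed the filter on low counts through the control libraries alone, so a fall is the only call open to them, and the calls of Kif3c and Kif6 are given as descriptions. Kif3a, the motor subunit shared by the heterotrimeric complexes of this family (chromosome 11, 53567379 to 53601967), was at 25.5, 32.9 and 28.0 CPM in control and 76.9, 84.8 and 84.5 in EtP. The groups were well apart, and it rose by 1.51 ± 0.21 on the log2 scale (SE; edgeR adjusted p = 0.000565), a call that held in every alternative run.

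The partners of Kif3a were called lower or not at all, and the differences between subunits were not tested. Kif3b, its usual partner, was at 12.2, 21.7 and 23.9 CPM in control and 30.4, 32.8 and 27.4 in EtP, all above the controls, but did not pass (log2 fold change 0.65 ± 0.28, SE; edgeR adjusted p = 0.0989). Leaving out control replicate 3, DESeq2 and a replicate block each made it pass (adjusted p = 0.0329, 0.0362 and 0.0376). The ratio of Kif3a to Kif3b CPM was 1.17 to 2.09 in control and 2.53 to 3.08 in EtP. Kif3c, the alternative partner, named after its values were seen, was rare at 1.44, 1.27 and 1.30 CPM in control and 0.386, 0.442 and 0.248 in EtP, from 20 to 24 counts in control and 3 to 4 in EtP (log2 fold change -1.90 ± 0.46, SE; edgeR adjusted p = 0.0105). This call was lost without EtP replicate 1 or 3 (adjusted p = 0.0612 and 0.0715), and Kif3c shares 2617 exonic bases with the antisense gene 1110002L01Rik. Kifap3, the non-motor subunit of the complex, was at 1.75 ± 0.48 CPM in control and 1.40 ± 0.04 in EtP (SD, n = 3; adjusted p = 0.568).

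Kif17, a homodimeric kinesin-2 known for carrying receptors in dendrites and cilia, was the most abundant transport kinesin per length in control, at 62.5, 78.7 and 99.8 TPM. In EtP it was at 41.9, 42.8 and 48.0 TPM, below Kif3a at 47.0, 61.3 and 64.8. In counts it was at 142, 145 and 159 CPM in control and 134, 135 and 129 in EtP. All EtP libraries were below the controls, as for 27.9% of tested genes, yet the log2 fold change of -0.16 ± 0.19 did not pass (SE; edgeR adjusted p = 0.546). With library size alone it was -0.90 and passed (adjusted p = 0.00434).

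Kinesin-1, the main carrier of vesicles and mitochondria, had no member past the threshold. Its heavy chain Kif5b was at 54.0, 73.6 and 114 CPM in control and 84.8, 96.0 and 91.6 in EtP, the controls spanning the EtP values (log2 fold change 0.18 ± 0.27, SE; edgeR adjusted p = 0.657). Kif5c, known as a neuronal heavy chain, was at 46.8, 61.1 and 79.3 CPM in control and 64.4, 70.8 and 80.2 in EtP (0.20 ± 0.24, SE; adjusted p = 0.558). The light chains Klc1 and Klc2, which bind cargo, had log2 fold changes of -0.41 and -0.20 (adjusted p = 0.248 and 0.669), and both were called lower with library size alone, at -1.14 and -0.94. Kif5a, the other neuronal heavy chain, held 4, 18 and 13 counts in control and 0, 0 and 1 in EtP, and was not tested. A difference between kinesin-1 and kinesin-2 was not tested.

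Among kinesin-3 carriers, Kif1b, Kif13b and Kif16b had log2 fold changes of 0.22, 0.19 and -0.20 with adjusted p of 0.569, 0.608 and 0.483. Kif1b moves mitochondria and synaptic vesicle precursors, and Kif16b moves early endosomes. Kif13a, which carries recycling endosomes, was at 7.83 ± 2.38 CPM in control and 3.94 ± 2.25 in EtP (SD, n = 3; edgeR adjusted p = 0.125), and it was called with the replicate block (-1.11, adjusted p = 0.00867) and with library size alone (-1.72, adjusted p = 0.0123). Kif1c and the minus-end motor Kifc3 had values of -0.53 and 0.38 (adjusted p = 0.404 and 0.382). Kif1a, a neuronal carrier, held 10, 3 and 9 counts in control and 1, 0 and 0 in EtP, and Kifc2 held 4, 13 and 4 against 1, 0 and 2. Both were too low to test.

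In the other class, 8 of 13 members passed the filter, 0 were higher and 2 were lower by edgeR, against 12.5% and 18.1% of all genes. At an unadjusted p below 0.05 the counts were again 0 and 2, against 17% and 25.3%, as with DESeq2, against 16% and 16.4%. With 8 genes these shares are near those of all genes. The median log2 fold change of the 8 was -0.43, against -0.19 over all tested genes. All 8 values were below 0, though that of Kif1bp was only -0.0003. Kif24, which acts at centrioles, was the most abundant per length, at 33.0, 48.1 and 42.3 CPM in control and 37.6, 36.5 and 37.8 in EtP (log2 fold change -0.14 ± 0.22, SE; edgeR adjusted p = 0.66). Kif1bp was at 6.78, 13.2 and 18.5 CPM in control and 9.94, 14.1 and 14.3 in EtP. Kif9, a kinesin of motile cilia and sperm tails, was at 4.92, 6.29 and 4.35 CPM in control and 4.34, 2.87 and 5.96 in EtP, and Kif21b at 4.26, 9.31 and 11.6 and at 6.56, 7.84 and 8.12. The groups overlapped for all 4.

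The members called lower in this class were rare transcripts, named after their values were seen. Kif6, a relative of Kif9, was at 2.70, 1.22 and 2.60 CPM in control and 0.386, 0.111 and 0.331 in EtP, from 23 to 45 counts in control and 1 to 4 in EtP. Its log2 fold change was -2.89 ± 0.57 (SE; edgeR adjusted p = 0.00362). As given above, Kif6 passed the filter through the control libraries alone, so a fall is the only call open to it. Kif27, a ciliary relative of Kif7, was at 3.18, 5.98 and 2.27 CPM in control and 1.54, 1.22 and 1.41 in EtP (log2 fold change -1.45 ± 0.43, SE; edgeR adjusted p = 0.0257). It no longer passed when control replicate 2 was dropped (adjusted p = 0.169), when any EtP library was (adjusted p = 0.0793, 0.103 and 0.0837 for replicates 1, 2 and 3) and with limma-voom (adjusted p = 0.0513). Kif21a and Kif26b were at -0.63 and -0.94 on the log2 scale and did not pass (adjusted p = 0.18 and 0.164). Kif28, Kif26a, Kif19a and Kif7 held at most 11 counts in any library and Kif16bos at most 5. Kif12, known from kidney, held 0 counts in all 6 libraries, which allows up to 0.159 to 0.331 CPM per library at 3 counts. That limit covers counting error only.

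Summed over each class, the balance of mitotic to transport transcripts was higher in every EtP library than in any control, but the groups overlapped when Kif23 was left out. Summed mitotic TPM was 824, 987 and 1070 in control and 1610, 1336 and 1919 in EtP replicates 1, 2 and 3. Summed transport TPM was 203, 278 and 367 in control and 186, 209 and 247 in EtP. Mitotic transcripts were thus 2.91 to 4.06 times transport transcripts in control and 6.38 to 8.66 times in EtP, a difference of 1.12 on the log2 scale that does not depend on scaling between libraries. Kif23 alone was 38.0% ± 2.18 of mitotic TPM in control and 66.4% ± 1.25 in EtP (SD, n = 3).

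With Kif23 left out, an alternative chosen after seeing the data, the log2 ratio was 0.80 to 1.38 in control and 1.06 to 1.60 in EtP, and the groups overlapped with a difference of 0.23. With both Kif23 and Kif17 left out, the most abundant of each class by mean TPM over all 6 libraries, the difference was 0.078. Summed TPM of the mitotic kinesins other than Kif23 was 594 ± 58.2 in control and 545 ± 101 in EtP (SD, n = 3). These sums overlapped between the groups.

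**Figure D3:**
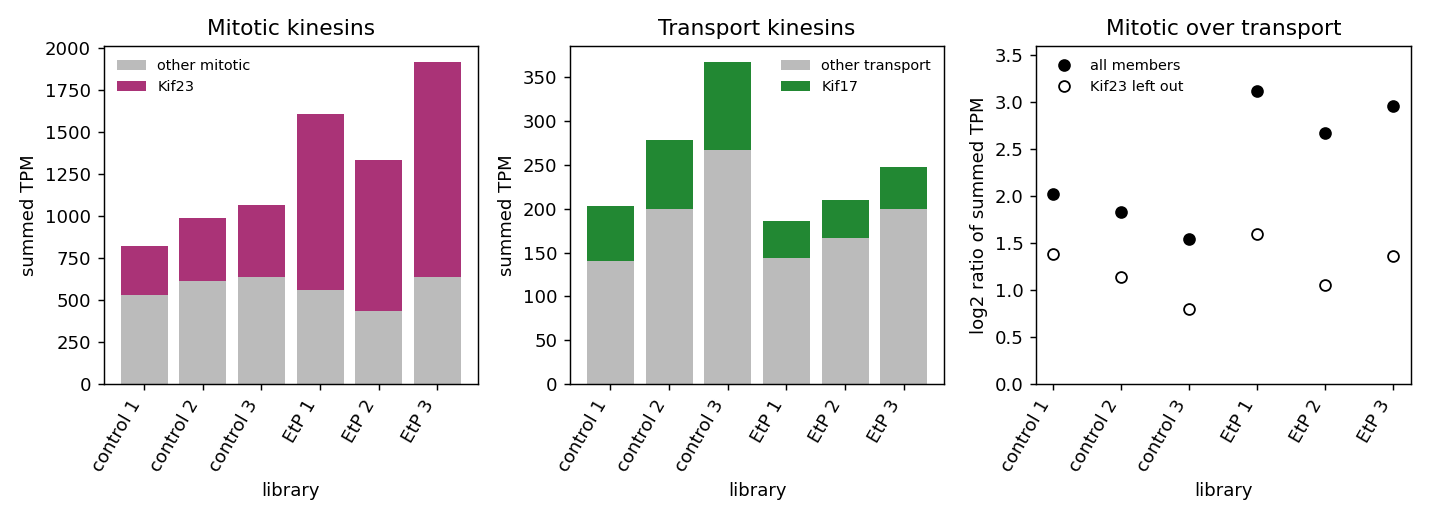
Summed TPM of mitotic kinesins (left, Kif23 in purple) and transport kinesins (middle, Kif17 in green), and the log2 ratio of the sums (right; filled, all members; open, Kif23 left out) in each of 6 libraries. The filled points of EtP, 2.67 to 3.12, lie above those of control, 1.54 to 2.02, while the open points overlap.

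Genes that work with mitotic kinesins rose more often than they fell when scaled by TMM. Of 40 spindle, kinetochore and midzone partners, 15 rose and 2 fell, and their median log2 fold change was 0.42, against 12.5% and 18.1% of all genes and a median of -0.19. Tacc3, which stabilises spindle microtubules, was at 235 ± 28.6 CPM in control and 1850 ± 292 in EtP, and Kpna2, the importin that holds spindle assembly factors, at 773 ± 85.0 and 3110 ± 465 (SD, n = 3; edgeR adjusted p = 1.13e-05 and 0.000101). The kinetochore gene Cenpc1 rose by 2.09 and Prc1, the midzone bundler, by 1.67 on the log2 scale (adjusted p = 0.000193 and 0.000503). The lower members were Spc24 and Hmmr, a kinetochore and a spindle pole gene, at -1.43 and -1.19. With library size alone 6 were higher and 12 lower, when 3.79% of all genes were higher and 53.0% lower, and on log2(TPM + 1) 10 were higher and 12 lower, when 5.17% and 42.8% were.

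Cargo adaptors gave a mixed picture. Of 26 tested, 5 rose and 3 fell, against 12.5% and 18.1% of all genes, and the median log2 fold change was -0.12. Rhot1, the mitochondrial anchor for kinesin-1, rose by 2.10, Madd, an adaptor of Kif1 motors, by 1.28, Kidins220, a kinesin-1 cargo, by 1.52, and Ktn1, a kinesin-binding membrane protein, by 1.21 (edgeR adjusted p = 0.00101, 0.0023, 0.00268 and 0.00294). The count of lower adaptors was 0 when control replicate 2, or replicate 2 or 3 of EtP, was dropped (edgeR), 1 and 2 when EtP replicate 1 and control replicate 3 were, and 8 when control replicate 1 was. In the full data 7 adaptors were lower at an unadjusted p below 0.05, where 25.3% of all genes were, and DESeq2 called 3. Among the 7 was Arl8a, at 0.386, 0.774 and 0.083 CPM in EtP replicates 1, 2 and 3. It passed the filter on low counts through the control libraries alone, so a fall is the only call open to it.

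Dynein, the motor that walks the other way, went in both directions. Of 33 tested genes of dynein, dynactin and their adaptors, 7 rose and 7 fell around a median of 0.08, against 12.5% and 18.1% of all genes. The 7 lower ones, named as a group after their values were seen, were Dynlt1a, Dynlt1b, Dynlt1c, Dynlt1f, Dynll1, Dynlrb1 and Dync1i1. Of these, Dynlt1c and Dync1i1 passed the filter on low counts through the control libraries alone, so a fall is the only call open to them. In EtP replicates 1, 2 and 3 Dynlt1c was at 0, 0.5525 and 0.8281 CPM, and Dync1i1 at 0.193, 0 and 0.2484. The light chains Dynll2 and Dynlt3 did not pass, at -0.56 and 0.06 on the log2 scale (adjusted p = 0.164 and 0.857). Dynll1 went from 172 ± 82.4 to 41.3 ± 8.21 CPM (SD, n = 3), a log2 fold change of -2.06 (edgeR adjusted p = 0.00121). Dynlt1b and Dynlt1f were at -2.65 and -2.59, and the Dynlt1 genes are close copies that may share reads. Spdl1, which brings dynein to kinetochores, rose from 55.4 ± 2.07 to 336 ± 25.1 CPM (adjusted p = 1.24e-05). Dropping EtP replicate 1 or 2 left 3 genes called higher, dropping control replicate 2 left 4, and dropping control replicate 1 gave 11.

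Of 17 tested tubulin genes, whose products form the track, 5 rose and 1 fell around a median of 0.28, against 12.5% and 18.1% of all genes. Tubb4b rose from 413 ± 83.0 to 2619 ± 273 CPM (SD, n = 3), and Tubb6, Tubb2b and Tubb5 rose by 1.69, 1.01 and 1.06 on the log2 scale (edgeR adjusted p = 2.76e-05, 0.000582, 0.00517 and 0.00585). The lower gene was Tuba3b, at -1.08. With library size alone 2 were higher and 5 lower, against 3.79% and 53.0% of all genes.

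**Figure D4:**
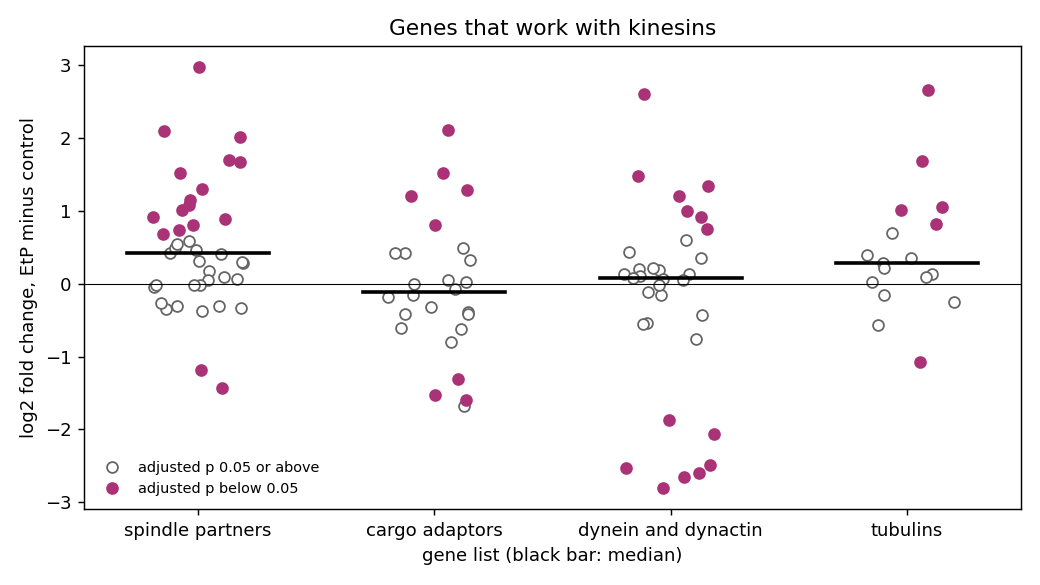
Log2 fold change of EtP against control for the tested genes of each partner list (40 spindle partners, 26 cargo adaptors, 33 dynein and dynactin genes, 17 tubulins); filled points have an adjusted p below 0.05 and black bars are medians. Spindle partners have 15 filled points above 0 and 2 below, and dynein genes have 7 on each side.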

How the data were processed

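The deposited expected counts are the authors' estimates of fragments per gene, with ambiguous fragments shared between genes, per the file headers. Between 10.6% and 16% of rows were not whole within 0.005, and values were rounded. The authors' TPM values, also deposited, express abundance relative to transcript length. Transcript lengths are the authors' abundance-weighted means. The submitters' processing notes list cutadapt 1.16, STAR and the mm10 build; no source used here names the counting program. The protocol does not mark strand.

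All genes were tested with edgeR 4.0.16 in R 4.3.3 (filterByExpr, TMM, robust quasi-likelihood, group as the only term), with Benjamini-Hochberg adjustment over 14373 genes at 0.05. SE was derived from the log2 fold change and its F statistic, and CPM from library sizes multiplied by TMM factors. DESeq2 1.42.0, limma 3.58.1, other scalings and filters, a replicate block and leaving out each library were alternatives. Positions and exon overlaps are from GENCODE M21 (47 of 47 IDs), and promoters from RefSeq (36 of 47 symbols, 40 windows). Figures used matplotlib 3.10.9.

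The members, classes and lists were chosen with earlier results of these data known. By rule, values per library are given for called members of at least 5 CPM and the 4 most abundant of each class by TPM, and group means or fold changes for the 4 partners per list of at least 5 CPM whose p was smallest. Other genes with values (Kif2a, Cenpe, Kif3b, Kif3c, Kif6, Kif27, Racgap1 and Kifap3 among them) were added after the values were seen. On simulated counts for this comparison (14048 genes tested), 86.5% of 96 genes changed 4-fold and 20.2% of 99 changed 2-fold were called, so smaller changes can be missed. Of the simulated calls, 7.21% were unchanged genes. Only these few genes were changed there, where 30.6% of tested genes were called in the data. The adjusted threshold was therefore stricter, and the shares are not the power of the real comparison. Without molecular identifiers, amplified copies count as reads.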

Additional observations from a re-analysis of the deposited data

How the results depend on the processing

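Using library size alone shifted the all-gene median by -0.73 (log2); the medians of mitotic and transport kinesins were -0.22 and -0.74, 2 mitotic, 7 transport and 6 other kinesins were lower, and higher and lower genes numbered 6 and 12 among spindle partners, 1 and 12 among cargo adaptors, 2 and 13 among dynein genes and 2 and 5 among tubulins, when 3.79% and 53.0% of all genes were called. Kif2a turned to -0.64 there (edgeR adjusted p = 0.0293). On log2(TPM + 1), by limma, the medians were -0.24 and -0.43, with 2 mitotic kinesins higher and 1 lower, 5 transport and 1 other kinesin lower, 10 spindle partners higher and 12 lower, cargo adaptors 3 and 10, dynein genes 2 and 10, and tubulins 2 and 3, when 5.17% and 42.8% of all genes were called. RLE scaling and DESeq2 each gave a mitotic median of 0.59, and DESeq2 called 2 transport kinesins higher. Lower cargo adaptors numbered 7 with upper-quartile scaling and 5 at 1 CPM or more in 3 libraries. Without a filter 2 transport kinesins were lower, and limma-voom called 1 other kinesin lower. The log2 ratio of summed mitotic to transport TPM differed between groups by 0.078 without Kif23 and Kif17 and by 0.23 without Kif23, the latter chosen after seeing the data.

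Leaving out each library gave 3 to 7 mitotic kinesins higher with medians of 0.43 to 0.59, 1 to 2 transport kinesins higher and 0 to 2 lower, and 1 to 2 other kinesins lower. Spindle partners lower numbered 1 to 3, cargo adaptors lower 0 to 8 and dynein genes higher 3 to 11. The sum ratio was 0.99 to 1.24 and the transport median -0.02 to 0.17. Same-numbered control and EtP libraries deviated together at correlations of 0.184, 0.005 and 0.363 for replicates 1, 2 and 3. Libraries of unlike number were at -0.305 to 0.152, so replicates 1 and 3 had the highest values and replicate 2 did not. The labels do not tell whether the numbers pair libraries. The main fit left pairing out, and the replicate block was an alternative. With the replicate block 2 transport kinesins were higher and 2 lower, and 6 cargo adaptors were lower. Members under about 1 CPM are limited by depth.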

Other observations

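Transcript length, as the authors weighted it over isoforms, differed between groups for several kinesins. For Kif20a it was 1608, 2152 and 2828 bases in control replicates 1, 2 and 3, and 2887, 3485 and 3196 in EtP. Its mean level was 90.8 and 130 CPM but 72.3 and 45.4 TPM in control and EtP. Klc1, a kinesin light chain with 9 annotated transcripts, was at 950, 1111 and 1103 bases in control and 1600, 1421 and 1610 in EtP, and Kif18b, a motor at microtubule plus ends, at 2339, 1911 and 2484 against 3326, 3326 and 2949. For Klc1 and Kif18b the EtP libraries lay above the controls in length, and their TPM groups did not overlap, while CPM groups overlapped for Kif18b and not for Klc1. For Kif23 the mean lengths were 1831 and 1869 bases. These genes were chosen after their lengths were seen, and isoforms were not tested.

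Length itself had little relation to change among the members. Across the 37 tested kinesins, Pearson's r between log2 length and log2 fold change was -0.12 (Spearman -0.17), and across all 14373 tested genes it was 0.14 (0.15). These are descriptions across genes, which share the same 6 libraries and are not independent replicates.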
